A study of Homo sapiens with 10 samples.

Results

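The interleukin-7 receptor gene *IL7R* and 6 partners of its signaling route were followed in RNA-Seq libraries of endothelial cells that lacked a long noncoding RNA (lncRNA) promoter next to a *VEGF* gene. The members were *IL7R*, its ligand genes *IL7* and *TSLP*, the kinase genes *JAK1* and *JAK3* and the transcription factor genes *STAT5A* and *STAT5B*, 7 of 27945 gene symbols in the table. *IL7R* was chosen by its own values in these libraries, since it fell the most among the differentially expressed genes upon *VEGFA-LNC* deletion. The partners were then selected for their place in its route. The values of *IL7R* in any comparison that holds *VEGFA-LNC* libraries are therefore given as a description, with no test. Of the 7 members, 5 reached the level needed for testing (FPKM times transcript kilobases of at least 1 in at least 2 libraries), and *IL7* and *TSLP* did not.

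All cells were EA.hy926, an established human line made by fusing umbilical vein endothelial cells with the lung carcinoma line A549, grown in DMEM with 10% serum. CRISPR/Cas9 was used to delete both copies of the promoter region of *VEGFA-LNC*, a lncRNA that starts within *VEGFA* on the opposite strand, or of *VEGFC-LNC*, a lncRNA near *VEGFC*. There were 3 clonal lines for each deletion and 2 control libraries for each, 10 libraries in all, made from rRNA-depleted total RNA with a directional kit and sequenced as single reads of 75 bases. Control cells had received the gRNAs without Cas9 and had gone through clonal selection too. Each deletion library was thus 1 clone, and differences between clones of a group were part of its spread. Nothing in the labels says that the 2 controls of a set came from separate cultures, so that p-values measure the spread between these libraries, which may be technical for the controls. The RNA of the deleted lncRNAs was not analysed here.

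Interleukin 7 binds a receptor built of the alpha chain, encoded by *IL7R*, and the common gamma chain, encoded by *IL2RG*. Thymic stromal lymphopoietin, the product of *TSLP*, uses the same alpha chain together with the chain encoded by *CRLF2*. JAK1 binds the alpha chain and JAK3 the gamma chain, and the activated kinases phosphorylate STAT5A and STAT5B, which then enter the nucleus and bind DNA at paired TTC and GAA half-sites. The route is best known for the survival and growth of developing lymphocytes.

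Markers were used to check the cells. Of 14 endothelial markers, *CLDN5* alone stayed under 0.1 FPKM (reads scaled by transcript length and by library size) in every library, and the summed level of the list was 538 to 1488 FPKM across the libraries. Of 10 lung epithelial markers, *CDH1*, *SFTPB*, *SFTPC* and *NKX2-1* stayed under 0.1 FPKM in every library, and the summed level was 439.5 to 1312 FPKM. *EPCAM*, *KRT19* and *NAPSA* reached at most 0.505, 0.354 and 0.97 FPKM. The sum thus came almost wholly from the keratin genes *KRT7*, *KRT8* and *KRT18*. Of 12 lymphoid markers, 6 (among them the T cell genes *CD2*, *CD3D* and *CD8A*) stayed under 0.1 FPKM in every library and none reached the level for testing. Their summed level was 0.75 FPKM in both *VEGFA-LNC* controls, 0.564 to 0.683 in the *VEGFA-LNC* deletion clones and 0.048 to 0.269 in the *VEGFC-LNC* libraries. The 10 libraries held 6743951 to 24197590 reads. Over all tested genes the median SD on the log2 scale was 0.06 between the controls of either set, against 0.29 in the *VEGFA-LNC* and 0.25 in the *VEGFC-LNC* deletion clones.

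The promoter of *IL7R*, 250 bases before to 50 bases after the start, is shown because this gene had the largest differences among the members. It lies at chr5:35856641-35856940 on the plus strand of GRCh38.p14 (RefSeq), and the capitals mark a TATAAA whose first base is 29 bases before the start.
IL7R: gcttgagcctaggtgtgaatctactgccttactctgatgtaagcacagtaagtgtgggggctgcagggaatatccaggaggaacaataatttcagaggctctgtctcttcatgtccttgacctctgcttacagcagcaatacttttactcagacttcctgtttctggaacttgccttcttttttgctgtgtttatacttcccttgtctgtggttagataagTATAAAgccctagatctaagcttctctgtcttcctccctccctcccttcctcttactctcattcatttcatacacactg
The letters TATAAA, searched on the strand of the gene, were found in 7.33% of 35116 promoters of the same length. The STAT5 half-site pair TTCNNNGAA, which reads the same on both strands, was found in 7.66% of them. It was not found in the promoters of *IL7R*, *JAK1*, *JAK3*, *STAT5A* or *STAT5B*, and 1 of 3 promoters of *TSLP* held it. Promoters were matched for 6 of the 7 members. Promoters of 2 known STAT5 target genes are shown to illustrate the motif, each with 4 matches in capitals. They were picked because they hold it, as no other of the 11 matched STAT5 target genes did, and a second promoter of *BCL6* had 0 matches. *CISH*, a feedback inhibitor of cytokine receptors, lies at chr3:50611725-50612024 and *BCL6*, a transcriptional repressor, at chr3:187745419-187745718, both on the minus strand of GRCh38.p14 (RefSeq).
CISH: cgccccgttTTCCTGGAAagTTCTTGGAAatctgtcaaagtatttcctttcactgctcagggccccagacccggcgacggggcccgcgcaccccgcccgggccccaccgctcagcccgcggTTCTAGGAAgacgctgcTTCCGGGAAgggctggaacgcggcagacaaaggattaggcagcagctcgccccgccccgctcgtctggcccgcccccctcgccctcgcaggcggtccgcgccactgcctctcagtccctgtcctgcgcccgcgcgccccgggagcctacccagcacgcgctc
BCL6: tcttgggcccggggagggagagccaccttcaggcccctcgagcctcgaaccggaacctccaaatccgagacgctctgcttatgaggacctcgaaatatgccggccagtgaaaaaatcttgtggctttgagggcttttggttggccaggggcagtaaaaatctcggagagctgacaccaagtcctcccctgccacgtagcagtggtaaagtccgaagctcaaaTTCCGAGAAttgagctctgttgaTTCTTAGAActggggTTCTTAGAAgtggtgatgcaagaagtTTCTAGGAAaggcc

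*IL7R* was moderately expressed in the *VEGFA-LNC* controls, far lower in the *VEGFA-LNC* deletion clones and intermediate in all *VEGFC-LNC* libraries. The row used, NR_120485, spans chr5:35856951-35879705 on hg19, plus strand. It was at 13.4 and 12.7 FPKM in the 2 *VEGFA-LNC* controls, from 1017 and 1247 reads. In the 3 *VEGFA-LNC* deletion clones it was at 0.463, 0.274 and 0.198 FPKM, from 30, 22 and 15 reads. Each of the 3 clones lay far below both controls, and the clones differed little in comparison with that gap. Their means were 0.312 ± 0.137 FPKM (SD, n = 3) and 13.1 ± 0.529 FPKM (SD, n = 2), a ratio of 41.9 and a log2 difference of −5.05 that, as the basis of the choice, carries no test.

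The level in the other control set was not the same. In the *VEGFC-LNC* controls *IL7R* was at 1.98 and 2.15 FPKM, and in the *VEGFC-LNC* deletion clones at 4.83, 1.69 and 2.96 FPKM. The clones fell on both sides of their controls. The means were 3.16 ± 1.58 FPKM (SD, n = 3) and 2.07 ± 0.121 FPKM (SD, n = 2). This comparison shares no library with the one behind the choice, and the log2 FC of *IL7R* upon *VEGFC-LNC* deletion was 0.47 (SE 0.41, 95% confidence interval −0.45 to 1.39, FDR 0.533 by limma), so that a change was not detected. With all 4 controls as the reference the sign turned, to −0.83 (FDR 0.567).

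From high to low, the group means of *IL7R* ran from *VEGFA-LNC* controls to *VEGFC-LNC* deletion clones, *VEGFC-LNC* controls and *VEGFA-LNC* deletion clones. Of the neighbours in that order, the *VEGFC-LNC* clones and their controls overlapped. The *VEGFC-LNC* controls were 6.31 times below the *VEGFA-LNC* controls, a log2 difference of −2.60, and the *VEGFA-LNC* clones were 10.1 times below the *VEGFC-LNC* clones, a log2 difference of −2.92. With all 4 controls as the reference, the log2 difference of the *VEGFA-LNC* clones was −3.75. The clones thus stood below every control library of both sets, and the size of the difference depended on which controls were taken. The spread of *IL7R* between the *VEGFC-LNC* clones, an SD of 0.73 on the log2 scale, was above that of 92.8% of the tested genes.

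**Figure D1:**
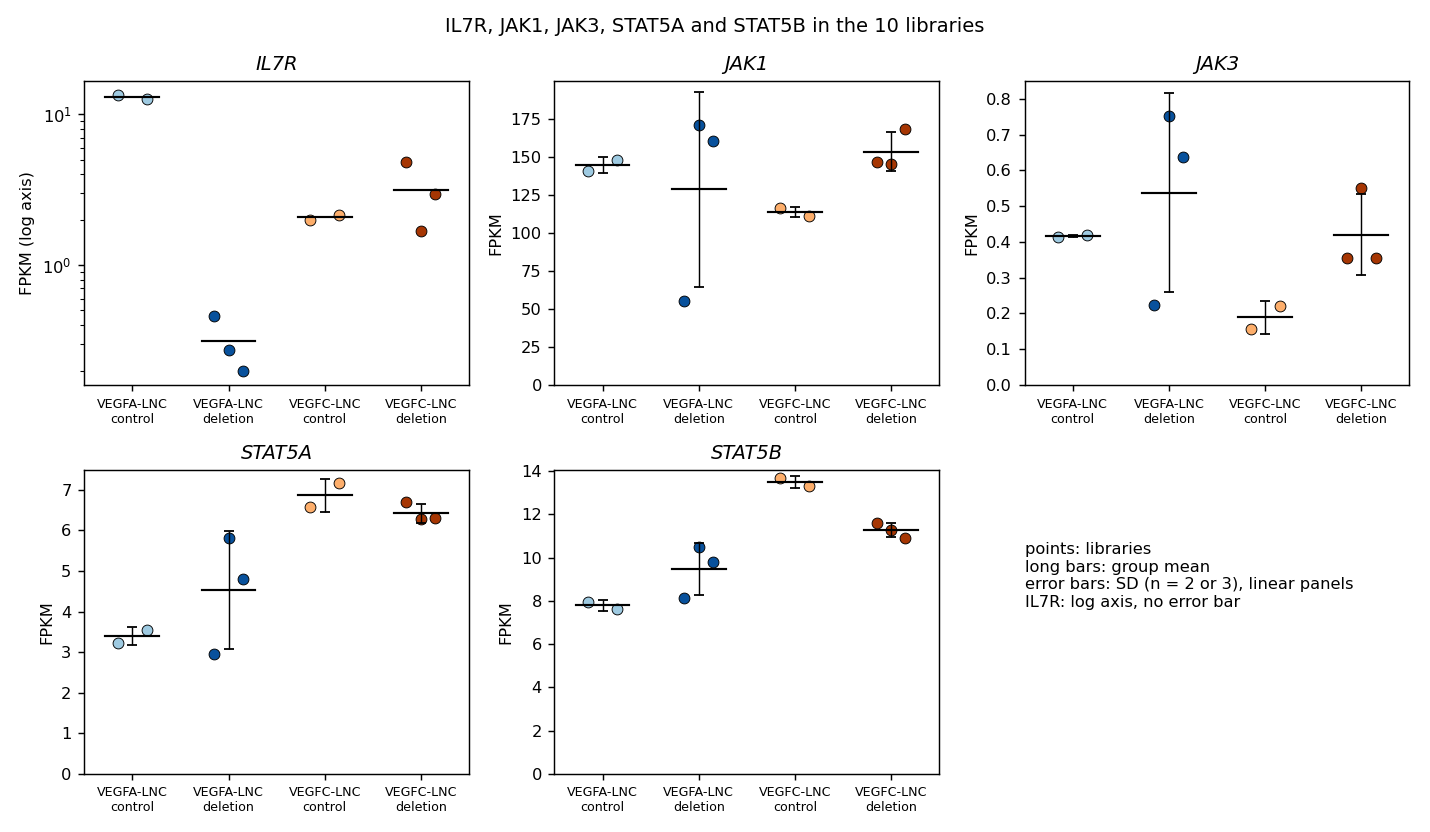
FPKM of the 5 tested members in each of the 10 libraries by group; points are libraries and long bars are group means, with SD error bars (n = 2 or 3) on the linear panels and a log axis for *IL7R*. *IL7R* sits at 12.7 and 13.4 FPKM in the *VEGFA-LNC* controls and at 0.198 to 0.463 in the *VEGFA-LNC* deletion clones, and *JAK1* is low in 1 of these clones.

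The table lists *IL7R* in 2 rows. The second row, NM_002185, is 259 bases longer (5.61% of its 4616 bases) and codes for the receptor. It was at 13.2 and 12.6 FPKM in the *VEGFA-LNC* controls and at 0.51, 0.27 and 0.212 FPKM in the *VEGFA-LNC* deletion clones. In the *VEGFC-LNC* controls it was at 1.96 and 2.16 FPKM, and in the deletion clones at 4.79, 1.65 and 2.89 FPKM. The order of the 10 libraries was thus close to that of the first row, and the ratio of the rows lay between 0.908 and 1.02 in every library. The reads counted in the longer row only made up 3.33% to 14.3% of its reads, with the highest share from 5 of 35 reads in the first *VEGFA-LNC* deletion clone.

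The ligands of the receptor were barely detected or not at all. *TSLP* was listed at 0 in all 3 of its rows in every library. For the longest row, of 3829 bases, this allows a level of up to 0.0324 to 0.116 FPKM, the level that 3 reads stand for at the depth of each library. The limit is higher for the shorter rows, the shortest of which has 2407 bases. *IL7* had 0 to 6 reads per library, and its level was 0.161 FPKM at most, in the second *VEGFA-LNC* deletion clone. These limits cover counting error only. No change of either ligand could be detected at this depth.

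*JAK1*, the kinase of the receptor alpha chain and of many other cytokine receptors, was the most abundant member on the length-scaled FPKM scale. It was at 141 and 148 FPKM in the *VEGFA-LNC* controls and at 54.98, 171 and 160.4 FPKM in the *VEGFA-LNC* deletion clones. The first clone stood apart from all other libraries, and the other 2 clones lay above both controls. The log2 FC was −0.33 (SE 0.42, FDR 0.716). Without the first clone the sign turned, to 0.20 (FDR 0.291). In the *VEGFC-LNC* controls *JAK1* was at 116 and 111 FPKM and in the deletion clones at 147, 145 and 168 FPKM. All 3 clones lay above both controls, as did those of 17.2% of the tested genes, and the log2 FC of 0.43 (SE 0.42, FDR 0.581) did not pass the test.

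The low *JAK1* value of the first *VEGFA-LNC* deletion clone was followed up at the locus, after the values had been seen. On the log2 scale *JAK1* was 1.59 lower in this clone than the mean of the other 2, and 3.76% of all tested genes were as low or lower by this measure. The 6 tested genes within 1 Mb of *JAK1* differed by −1.11 to 1.19 in the same measure, with a median of 0.01 and 3 of 6 below 0.

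*JAK3*, the kinase of the common gamma chain and mainly a gene of blood cells, was close to the detection limit, with 8 to 75 reads per library. It was at 0.415 and 0.418 FPKM in the *VEGFA-LNC* controls and at 0.224, 0.752 and 0.638 FPKM in the deletion clones. Again the first clone was the lowest and the other 2 lay above the controls, for a log2 FC of 0.19 (SE 0.41, FDR 0.84). In the *VEGFC-LNC* controls it was at 0.156 and 0.222 FPKM and in the clones at 0.355, 0.55 and 0.356 FPKM. All 3 clones exceeded both controls, as in 17.2% of all tested genes, with a log2 FC of 0.84 (SE 0.41, 95% confidence interval −0.10 to 1.77, FDR 0.303).

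*STAT5A* and *STAT5B*, the factors at the end of the route, lie next to each other on chromosome 17 and followed each other over the libraries. *STAT5A* was at 3.23 and 3.54 FPKM in the *VEGFA-LNC* controls and at 2.95, 5.81 and 4.81 FPKM in the *VEGFA-LNC* deletion clones. The first clone lay just below the controls and the others above, with a log2 FC of 0.36 (SE 0.25, FDR 0.475). Without the first clone it was 0.63 (FDR 0.0283), which passed the threshold. In that fit 1728 of all tested genes passed, against 367 with all libraries. In the *VEGFC-LNC* controls *STAT5A* was at 6.58 and 7.16 FPKM and in the clones at 6.70, 6.28 and 6.30 FPKM. These libraries overlapped, and the log2 FC was −0.09 (SE 0.25, 95% confidence interval −0.66 to 0.47, FDR 0.853).

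*STAT5B* was at 7.97 and 7.61 FPKM in the *VEGFA-LNC* controls and at 8.14, 10.5 and 9.81 FPKM in the deletion clones. All 3 clones lay above both controls, as did those of 15.3% of the tested genes, and the log2 FC was 0.27 (SE 0.14, FDR 0.307). In the *VEGFC-LNC* controls it was at 13.7 and 13.3 FPKM and in the clones at 11.6, 11.3 and 10.9 FPKM. Here all 3 clones lay below both controls, as did those of 30.6% of the tested genes, with a log2 FC of −0.26 (SE 0.14, FDR 0.329). Against all 4 controls the signs of both STAT5 genes turned in both deletions.

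Across members, none of the 4 tested partners passed the threshold (FDR under 0.05 and at least 1.5-fold in limma) upon *VEGFA-LNC* deletion, where 2.75% of all tested genes did. None of the 5 tested members, *IL7R* included, passed upon *VEGFC-LNC* deletion, where 0.473% of all tested genes did. The count was 0 in both comparisons at an unadjusted p under 0.05 as well, against 19.8% and 18.8% of all tested genes. With so few members a count of 0 says little. When the effect of one deletion was tested against that of the other, none of the 4 partners was called, against 1.46% of all tested genes. The nearest was *STAT5B*, with a difference in log2 FC of 0.53 (SE 0.19, FDR 0.195). Between the 2 sets of deletion clones none of the 4 partners passed, with or without the replicate number as a block, where 7.46% of all tested genes did without it. The intervals of the *JAK1* and *JAK3* effects were wide enough to hold changes of 2-fold, so that a p that misses the threshold does not show that they stayed level.

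The control sets were compared with each other as well. *STAT5A* was 2.03 times higher in the *VEGFC-LNC* controls than in the *VEGFA-LNC* controls (log2 FC 1.00, SE 0.27, FDR 0.0447), and *STAT5B* was 1.73 times higher (log2 FC 0.79, SE 0.15, FDR 0.015). In both genes the 2 libraries of the one set lay above the 2 of the other, as in 33.7% of all tested genes. *JAK1* (log2 FC −0.35, FDR 0.644) and *JAK3* (log2 FC −0.85, FDR 0.236) did not pass. In this comparison 12.7% of all tested genes passed, 2.92% as higher and 9.76% as lower in the *VEGFC-LNC* controls. Of the 1690 genes called, 23.0% were higher, against 39.3% of 1492 when libraries were scaled by the median of ratios, which moved all genes by 0.11 on the log2 scale and left both STAT5 calls in place. Both STAT5 calls were lost when either control of either set was left out and when each control pair was averaged. These fits left 1 value in a control group, which makes a call hard to reach for any gene. The call of *STAT5A* was also lost in 6 more of the alternatives, with FDRs of 0.0519 to 0.0627.

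**Figure D2:**
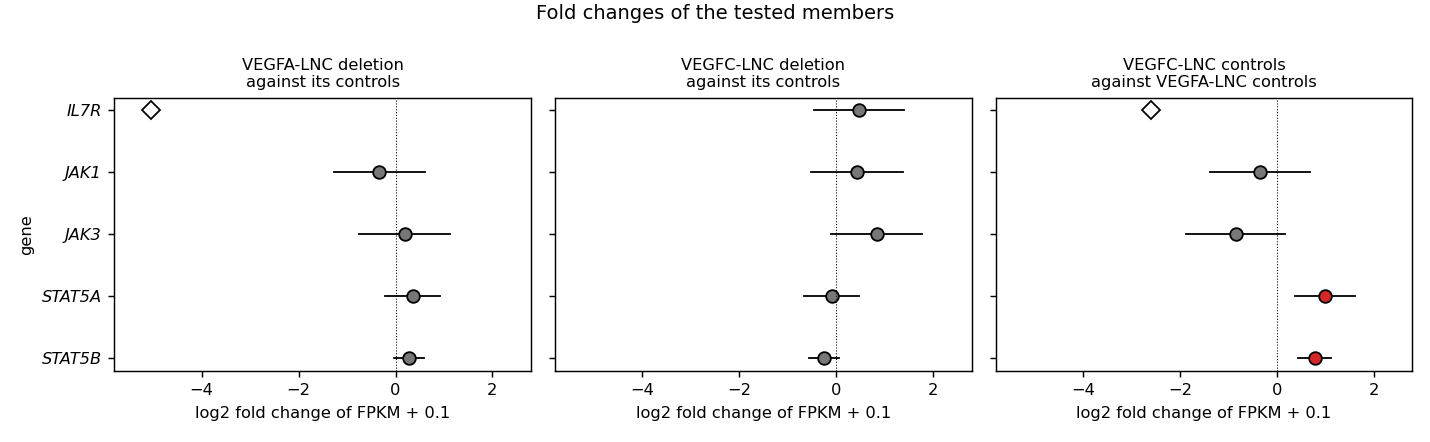
Log2 fold changes of the 5 tested members in 3 comparisons, with 95% confidence intervals; red points passed the threshold, and open diamonds are *IL7R* in comparisons that hold *VEGFA-LNC* libraries, given with no test. The 4 partners lie between −0.33 and 0.36 upon *VEGFA-LNC* deletion, against −5.05 for *IL7R*.

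The 2 STAT5 genes are near copies in part of their sequence, so that reads of one could be counted in the other. In the annotated transcripts, 421 runs of 75 bases were shared by both genes, 6.12% of those of *STAT5A* and 3.19% of those of *STAT5B*. The 4 rows of *STAT5A* differed by at most 1.05 times in their mean, and the 8 rows of *JAK1* by 1.07 times.

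Genes with a pattern like that of *IL7R* over the 10 libraries were looked up by Pearson correlation of log2(FPKM + 0.1), as a description in which the libraries are shared with the choice of *IL7R*. The 5 most alike were *HECW2* (r = 0.961), *ZNF557* (r = 0.96), *SKIL* (r = 0.957), *MTMR9* (r = 0.955) and *ASRGL1* (r = 0.95), and the 3 most opposed were *STMN3* (r = −0.971), *ATE1* (r = −0.952) and *TSR2* (r = −0.95). *SKIL*, a repressor of SMAD signaling, averaged 37.7 FPKM in the *VEGFA-LNC* controls, 14.2 in the *VEGFA-LNC* clones, 18.8 in the *VEGFC-LNC* controls and 26.8 in the *VEGFC-LNC* clones. *STMN3*, a protein that binds tubulin, averaged 9.90, 27.2, 19.0 and 15.2 FPKM in the same order. The correlation of *IL7R* with its partners was far weaker, from −0.25 (*JAK3*) to 0.20 (*JAK1*).
For *STAT5A* the most alike were *INO80C* (r = 0.962), *FIGNL2* (r = 0.952), *CACNG8* (r = 0.939), *STAT5B* (r = 0.938) and *UBE2J1* (r = 0.934), and the most opposed *WSB2* (r = −0.971), *PCLO* (r = −0.966) and *CLIC3* (r = −0.964). *STAT5B* was thus the fourth most similar of all tested genes to *STAT5A*. *INO80C*, a subunit of a chromatin remodeling complex, averaged 16.0 FPKM in the *VEGFA-LNC* controls, 21.7 in their clones, 33.4 in the *VEGFC-LNC* controls and 33.6 in their clones.

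Genes around *IL7R* were compared with it. The table lists 19 genes within 1 Mb of it, of which 8 were tested, and 1 of the 8 passed upon *VEGFA-LNC* deletion, where 2.75% of all tested genes did. This was *LMBRD2*, 223709 bases away, at 3.25 and 3.401 FPKM in the controls and 1.75, 2.09 and 1.59 FPKM in the clones (log2 FC −0.85, FDR 0.0421). The *VEGFC-LNC* controls, at 1.38 and 1.62 FPKM, were as low as the clones, and against all 4 controls the log2 FC was −0.30 (FDR 0.701). The call was also lost without either *VEGFA-LNC* control and with control pairs averaged. These fits left 1 value in a control group, which makes a call hard to reach for any gene. It was lost too in a fit of these 5 libraries alone (FDR 0.161) and without a filter (FDR 0.0628). The same held under scaling by the median of ratios (FDR 0.0553) and with the replicate block (FDR 0.0863). The other 7 lay between −0.00 (*RAD1*) and 0.74 (*NIPBL-DT*). Upon *VEGFC-LNC* deletion none of the 8 passed, where 0.473% of all tested genes did. Of the 8, 7 were below 0, from −1.21 (*SKP2*, which marks cell cycle inhibitors for breakdown) to −0.04 (*NADK2*), with *LMBRD2* at 0.45. Their median was −0.47, against −0.09 over all tested genes. For the *VEGFC-LNC* controls against the *VEGFA-LNC* controls, 7 of the same 8 were above 0. The median there was 0.53, against −0.11 over all tested genes. *CAPSL*, the nearest gene at 24693 bases, and *PRLR*, the prolactin receptor gene and another receptor that signals by STAT5, were not tested. *PRLR* was at 0.372 and 0.159 FPKM in the *VEGFA-LNC* controls, from 9 and 5 reads, at 0, 0.039 and 0 in their clones, listed at 0 in both *VEGFC-LNC* controls and at 0, 0 and 0.213 in the *VEGFC-LNC* clones.

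**Figure D3:**
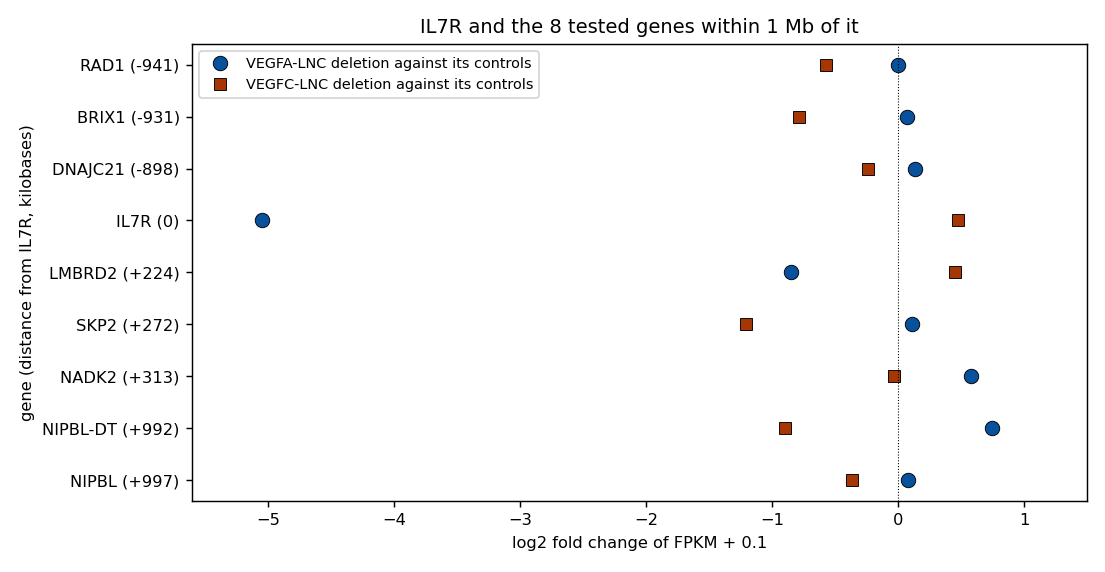
Log2 fold changes of *IL7R* and of the 8 tested genes within 1 Mb of it in both deletion comparisons, ordered by position, with the distance from *IL7R* in kilobases in brackets. Upon *VEGFA-LNC* deletion *IL7R* is at −5.05, *LMBRD2* at −0.85 and the other 7 between −0.00 and 0.74.

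The rest of the pathway was followed in 6 lists of 65 genes, of which 47 were tested. Upon *VEGFA-LNC* deletion 2 of the 47 passed (4.26%, against 2.75% of all tested genes), both as lower, and upon *VEGFC-LNC* deletion 0 passed in limma. At an unadjusted p under 0.05 there were 12 (25.5%, against 19.8% of all tested genes) and 7 (14.9%, against 18.8%).

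Among the other receptor chains of the gamma-chain cytokines and TSLP, 7 of 9 were tested and none passed in either deletion, with a median log2 FC of −0.34 upon *VEGFA-LNC* deletion (−0.06 over all tested genes) and −0.55 upon *VEGFC-LNC* deletion (−0.09). At an unadjusted p under 0.05 there were 1 and 4 of the 7, against 19.8% and 18.8% of all tested genes. *IL2RG*, the common gamma chain that completes the interleukin-7 receptor, was at 1.70 and 1.77 FPKM in the *VEGFA-LNC* controls and at 0.485, 1.60 and 1.62 in their clones, with the lowest value in the first clone. It was at 0.829 and 0.515 FPKM in the *VEGFC-LNC* controls and at 0.059, 0.035 and 0.195 in their clones. All 3 *VEGFC-LNC* clones lay below both controls, as in 30.6% of all tested genes, with 1 to 2 reads per clone, and the log2 FC on the log2(FPKM + 0.1) scale was −2.03 (SE 0.52, FDR 0.117), or −0.61 with a pseudocount of 1. *CRLF2*, the chain that joins *IL7R* in the TSLP receptor, was at 1.49 and 0.195 FPKM in the *VEGFC-LNC* controls and at 0.21, 0 and 0 in their clones, with at most 12 reads, and it did not pass (FDR 0.202). *CRLF2*, *IL9R* and *IL3RA* lie in regions that the X and Y chromosomes share, so that their values depend on how reads matching both copies were counted. *IL4R*, the receptor chain for interleukin 4, was far higher, at 17.3 to 35.3 FPKM over the libraries. *IL15RA* (log2 FC 1.66, FDR 0.310) and *IL9R* (−0.87, FDR 0.417) had the largest differences upon *VEGFA-LNC* deletion, at under 1 FPKM in every library.

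Of the ligands of these receptors 1 of 6 was tested. This was *IL15*, which sustains natural killer and memory T cells, at 1.501 and 1.62 FPKM in the *VEGFA-LNC* controls and 0.405, 0.653 and 0.866 in their clones. All clones lay below the controls, as did those of 23.7% of the tested genes, and the log2 FC was −1.21 (FDR 0.0922). Upon *VEGFC-LNC* deletion it was −0.57 (FDR 0.372).

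Of the other JAK and STAT genes 6 of 7 were tested and none passed in either deletion. *TYK2*, a kinase of interferon and interleukin receptors, was at 17.0 and 17.0 FPKM in the *VEGFA-LNC* controls and at 9.65, 9.67 and 11.3 in their clones (log2 FC −0.73, FDR 0.0613). Upon *VEGFC-LNC* deletion the largest differences were those of *STAT3* (0.55, FDR 0.471) and *STAT6* (−0.38, FDR 0.243). The median of the list was 0.22 and 0.09 in the 2 deletions.

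Negative regulators of JAK-STAT signaling were tested in 16 of 18 cases and none passed in either deletion, with medians of −0.09 and −0.17. The largest differences were those of *PIAS4* (−0.48, FDR 0.177) and *SOCS3* (−0.32, FDR 0.439) upon *VEGFA-LNC* deletion and of *PTPN2* (−0.39, FDR 0.355) and *PIAS2* (−0.30, FDR 0.378) upon *VEGFC-LNC* deletion. *SOCS3*, an inhibitor that cytokines induce, was at 10.6 and 10.6 FPKM in the *VEGFA-LNC* controls, 7.04, 10.2 and 8.40 in their clones, 3.47 and 2.92 in the *VEGFC-LNC* controls and 3.59, 2.49 and 2.77 in their clones. Both *VEGFC-LNC* controls lay below both *VEGFA-LNC* controls, as in 49.2% of all tested genes. The difference passed the threshold (log2 FC −1.70, FDR 0.00541), as did 9.76% of all tested genes in this direction. *SOCS2*, another inhibitor of this family, went the other way between the control sets, with a log2 FC of 0.93 (FDR 0.0475).

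Known STAT5 target genes were tested in 13 of 17 cases, and none passed upon either deletion, with 3 and 1 at an unadjusted p under 0.05. The medians were −0.16 and −0.12, against −0.06 and −0.09 over all tested genes, with 6 and 4 of 13 above 0. The largest differences were those of *ID1*, an inhibitor of differentiation (−1.21, FDR 0.158), and the kinase gene *PIM3* (0.77, FDR 0.475) upon *VEGFA-LNC* deletion. Upon *VEGFC-LNC* deletion they were those of the survival gene *BCL2L1* (1.21, FDR 0.187) and of *BCL6* (0.83, FDR 0.305), the repressor gene. *CISH*, a standard readout of STAT5 activity, did not reach the level for testing, with 3 to 18 reads and at most 0.379 FPKM per library. Between the control sets 3 of the 13 passed, where 12.7% of all tested genes did, *SOCS2* as higher and *SOCS3* and the cyclin gene *CCND1* (log2 FC −0.67, FDR 0.037) as lower in the *VEGFC-LNC* controls. In this comparison 12 of the 13 were below 0, with a median of −0.53 against −0.11 over all tested genes.

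**Figure D4:**
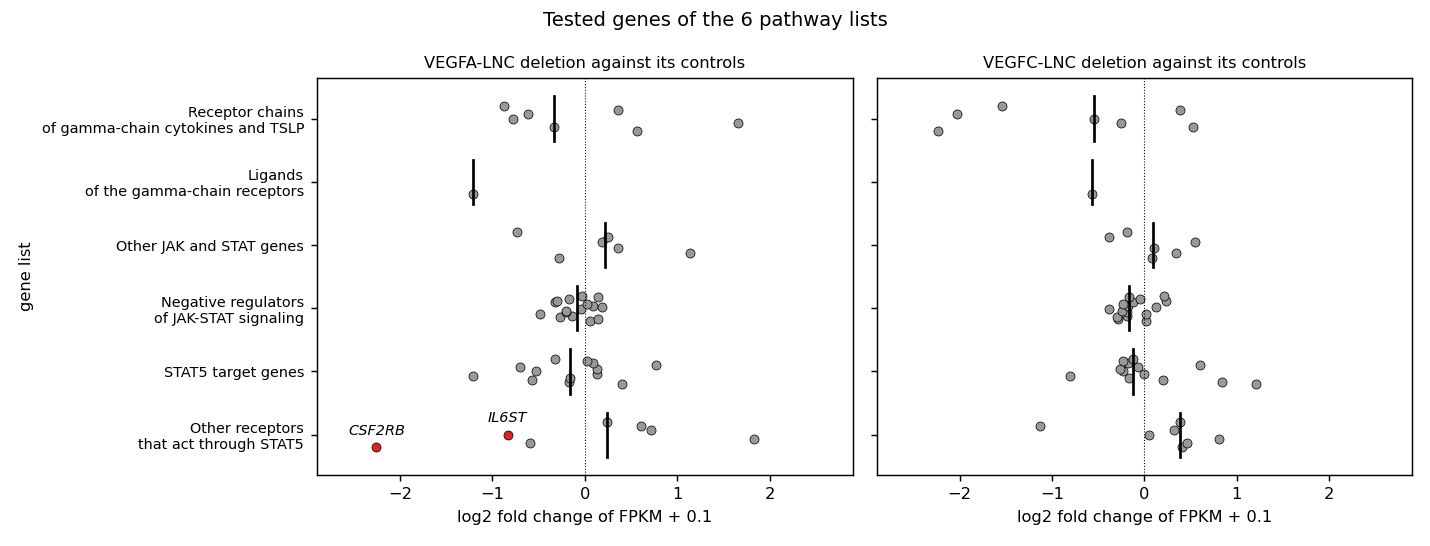
Log2 fold changes of the tested genes of the 6 pathway lists in both deletion comparisons; each point is a gene, red points passed the threshold and vertical bars are list medians. The 2 red points are *CSF2RB* (−2.26) and *IL6ST* (−0.84) upon *VEGFA-LNC* deletion.

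The 2 pathway genes that passed upon *VEGFA-LNC* deletion were among the other receptors that act through STAT5, of which 7 of 12 were tested. *CSF2RB*, the shared beta chain of the receptors for interleukin 3, interleukin 5 and GM-CSF, was at 14.6 and 15.4 FPKM in the *VEGFA-LNC* controls and at 3.08, 4.77 and 1.95 FPKM in their clones (log2 FC −2.26, SE 0.31, FDR 0.012). *IL6ST*, the shared gp130 chain of the interleukin-6 family, was at 44.3 and 45.7 FPKM in the controls and at 24.6, 27.7 and 23.5 FPKM in the clones (log2 FC −0.84, SE 0.12, FDR 0.0139). In both genes each clone was under each control, as in 23.7% of all tested genes.
The *VEGFC-LNC* controls were near the level of these clones. *CSF2RB* was at 4.19 and 4.11 FPKM there and at 4.66, 6.24 and 5.77 in the *VEGFC-LNC* clones, and *IL6ST* at 24.1 and 25.0 and at 26.9, 25.7 and 23.5 FPKM. Against the *VEGFA-LNC* controls the *VEGFC-LNC* controls were lower in both (log2 FC −1.83, FDR 0.0143, and −0.87, FDR 0.00707). Upon *VEGFA-LNC* deletion neither passed against all 4 controls (FDR 0.308 and 0.486) or in a fit of only these 5 libraries (FDR 0.111 and 0.101). Both settings removed most calls over the whole table. Both calls were also lost with control pairs averaged or without either *VEGFA-LNC* control. Such fits left 1 value in a control group, which makes a call hard to reach for any gene. *IL7R* was high in the *VEGFA-LNC* controls too, but differed from *IL6ST* in that its *VEGFA-LNC* clones lay below every *VEGFC-LNC* library. In the rest of the list the largest differences were those of *IL3RA* (1.84, FDR 0.253) and *LEPR* (0.71, FDR 0.401) upon *VEGFA-LNC* deletion and of *LIFR* (−1.13, FDR 0.208) and *IL3RA* (0.81, FDR 0.595) upon *VEGFC-LNC* deletion.

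Between the control sets 7 of the 47 tested pathway genes passed, 14.9% against 12.7% of all tested genes. *SOCS2* was higher in the *VEGFC-LNC* controls, and *CSF2RB*, *IL6ST*, *SOCS3*, *CCND1*, *IL15* (log2 FC −1.34, FDR 0.0446) and *IL13RA1* (−0.86, FDR 0.00541) were lower. *IL13RA1*, a chain that interleukin 4 and interleukin 13 share, was at 57.7 and 59.1 FPKM in the *VEGFA-LNC* controls, 45.5, 46.9 and 46.3 in their clones, 32.5 and 31.6 in the *VEGFC-LNC* controls and 45.9, 43.4 and 49.4 in their clones. Both sets of clones met between the 2 control sets. Each of these calls was lost with control pairs averaged, which left 1 value per control set and makes a call hard to reach. Apart from fits without 1 library, the call of *IL15* was kept in 2 of 8 alternatives and those of *SOCS2* and *CCND1* in 5. Those of *CSF2RB*, *IL6ST*, *SOCS3* and *IL13RA1* were kept in 7.

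**Figure D5:**
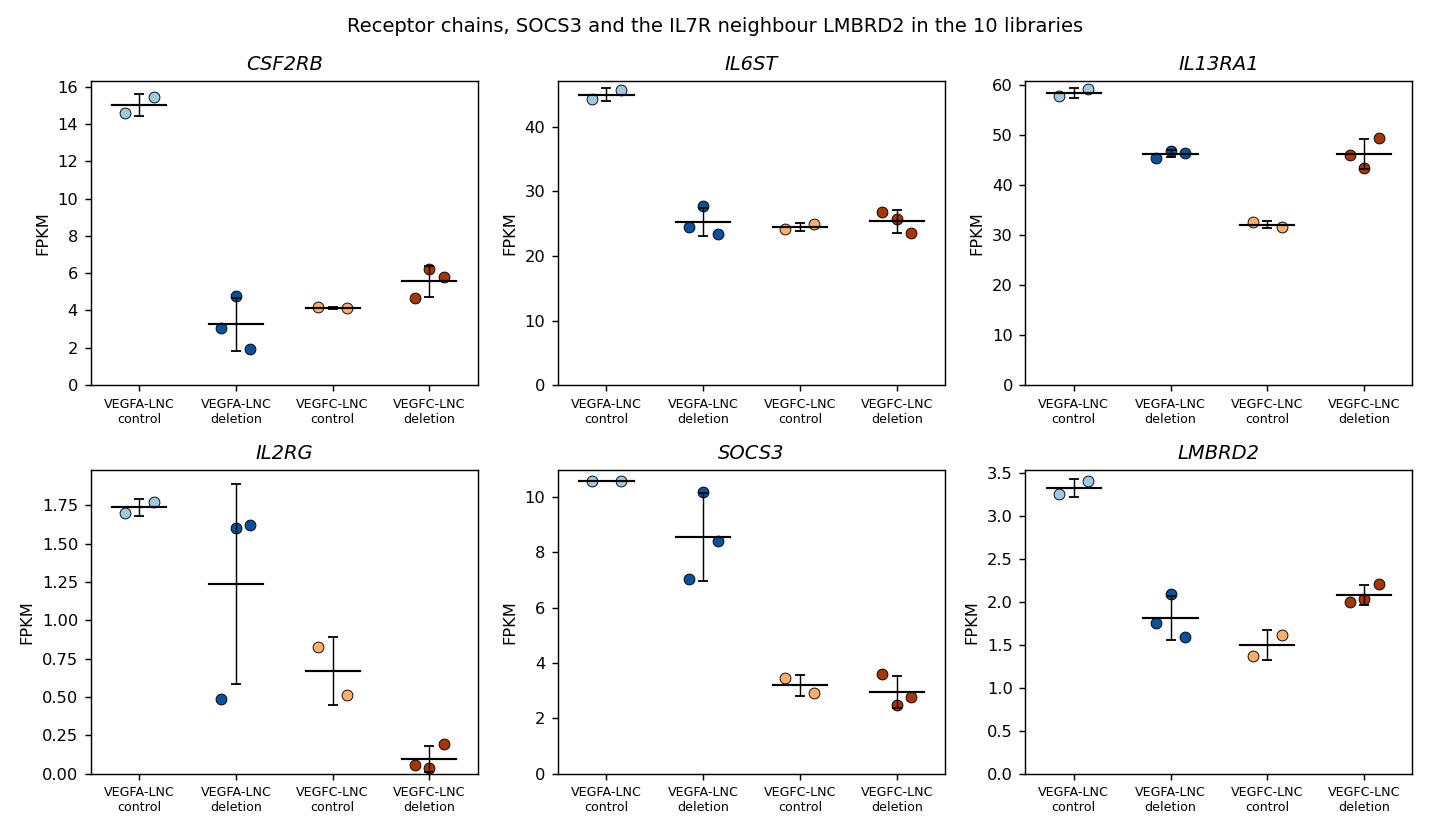
FPKM of 5 pathway genes and of *LMBRD2*, a gene near *IL7R*, in the 10 libraries; points are libraries, long bars group means and error bars SDs (n = 2 or 3). *CSF2RB*, *IL6ST* and *LMBRD2* are high in the *VEGFA-LNC* controls and lower in the other 3 groups, and *IL2RG* is lowest in the *VEGFC-LNC* deletion clones.

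Marker lists were set beside these results. *EMCN*, an endothelial surface sialomucin, was at 6.39 and 6.74 FPKM in the *VEGFC-LNC* controls and at 0.022, 0.121 and 0.184 in their clones. It was the single endothelial marker of 13 tested that passed, upon *VEGFC-LNC* deletion (log2 FC −5.08, FDR 0.0467), a call lost in 4 of 10 alternatives (FDR up to 0.876, with control pairs averaged) and without any one of 8 of the 10 libraries. Its log2 FC upon *VEGFA-LNC* deletion was −3.64 (FDR 0.0609), and it passed without the first or the second clone (FDR 0.0345 and 0.00615). Without the first clone 1728 genes were called in this comparison, against 367 with all libraries. The largest other differences were those of *VWF* (1.70, FDR 0.39) and *KDR* (1.37, FDR 0.549) upon *VEGFA-LNC* deletion and of *KDR* (1.59, FDR 0.447) and *ROBO4* (1.22, FDR 0.267) upon *VEGFC-LNC* deletion. Of the 4 lung epithelial markers tested none passed, the largest differences being those of the keratin genes *KRT18* (−1.28, FDR 0.202) and *KRT8* (−1.25, FDR 0.163) upon *VEGFC-LNC* deletion and of *KRT8* (−0.46, FDR 0.567) and *NAPSA* (−0.43, FDR 0.651) upon *VEGFA-LNC* deletion. The part of these markers in the level of *IL7R* was not tested.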

How the data were processed

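The 10 RNA-Seq libraries of EA.hy926 cells were grouped by their titles and genotypes. The submitters' notes name Trim Galore (version 0.4.4), STAR (version 2.5.4b) and featureCounts, with GRCh37 (hg19), and the paper's methods describe an edgeR test of Gencode counts, which were not used here. The authors deposited 1 table of FPKM values of 65572 RefSeq transcripts, scaled by length and library size, the making of which is not given in the sources used here. FPKM multiplied by length came to whole reads (100% of checked values, within 0.1 read), which gave 6743951 to 24197590 reads per library. Intervals and limits from these reads cover counting error only.

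Each symbol was represented by the transcript of highest mean FPKM, and 42 rows with no symbol (0.03% of the length-scaled sum) were left out. Genes with FPKM times transcript kilobases of at least 1 in at least 2 libraries, 13333 genes, were fitted as log2(FPKM + 0.1) with limma (version 3.58.1, R 4.3.3; lmFit and eBayes with a trend) in 1 model of 4 groups (6 residual degrees of freedom). FDRs follow Benjamini and Hochberg over all tested genes, and genes were called at FDR below 0.05 with a change of 1.5-fold or more. The procedure was tried on simulated counts with the same noise in all libraries and no difference between the control sets. The wider spread between clones was therefore not covered. Alternatives were pseudocounts, filters, scaling, transcript choice, a replicate block, other uses of the controls and leaving out each library.

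The controls of a set differed by more than sampling noise and were counted as 2 samples. Same-numbered clones of the 2 deletions deviated together (r = 0.219 to 0.553, 3 pairs). Differently numbered ones ran from −0.54 to 0.263, so that these values do not show a pairing by number. The labels give such clones only a shared number. In the comparison of the 2 sets of clones the blocked fit changed no call of a partner. Members, gene lists and comparisons were chosen with earlier results of these data known. Named genes were the members, genes within 1 Mb of *IL7R*, the most and least similar genes to *IL7R* and *STAT5A*, and from each list the genes called in a deletion comparison and the 2 of largest change in each of them. *IL4R*, *CISH*, *PRLR*, *SOCS2*, *CCND1*, *IL13RA1* and the neighbours of *JAK1* were named beyond that rule, after their values were seen. Some items that the rule names are not reported here. Promoters were read from a RefSeq table of GRCh38.p14, apart from the hg19 positions of the table. Python (version 3.11.15), numpy (2.4.6) and pandas (2.3.3) were used for the rest.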

Additional observations from a re-analysis of the deposited data

Results flagged for a closer look

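The effects of the 2 deletions differed for 3 of the 47 tested pathway genes (6.38%, against 1.46% of all tested genes), by the test of the difference itself in limma, and each carries a difference between the control sets beside it. The effect on *CSF2RB* upon *VEGFA-LNC* deletion was lower than that upon *VEGFC-LNC* deletion by 2.66 on the log2 scale (−2.66, FDR 0.0276), from log2 FCs of −2.26 and 0.40, while the controls themselves differed by −1.83. For *IL6ST* the difference was −0.88 (FDR 0.0441), from −0.84 and 0.04, with −0.87 between the controls. For *IL13RA1* it was −0.86 (FDR 0.0307), from −0.34 and 0.53, with −0.86 between the controls, and the clones of the 2 deletions were at the same mean of 46.3 FPKM in the one set and 46.2 FPKM in the other. All 3 were lost with control pairs averaged and without any one of the 4 controls. These fits left 1 value in a control group, which makes a call hard to reach for any gene. *IL6ST* and *IL13RA1* were also lost with the replicate block (FDR 0.0624 and 0.0647), *IL6ST* under scaling by the median of ratios (FDR 0.0501), and each of the 3 when any of 2 or 3 single clones was left out (FDR 0.0507 to 0.0845). By construction each difference adds the log2 FC of *VEGFA-LNC* against *VEGFC-LNC* clones to that of *VEGFC-LNC* against *VEGFA-LNC* controls. Why the control sets differed was not tested.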

How the results depend on the processing

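Counts of called genes over the whole table moved with the use of the controls. Upon *VEGFA-LNC* deletion 367 genes were called, with 654 without a filter, 29 against all 4 controls, 20 in a fit of the 5 libraries alone and 0 with control pairs averaged (834 at an unadjusted p under 0.05 in limma). Upon *VEGFC-LNC* deletion 63 were called, with 26 in the fit of 5 libraries and 1 with control pairs averaged (592). Between the control sets 1690 were called and 0 with pairs averaged (1224 at an unadjusted p under 0.05), for the difference between the effects 194, 329 without a filter and 0 with pairs averaged (689), and between the sets of clones 994 and 45. Leaving out each library in turn gave 0 to 1728, 5 to 1157, 29 to 3066, 5 to 692 and 395 to 1973 in these 5 comparisons. In each of them the highest count was that without the first *VEGFA-LNC* clone, and the lowest that without a control, except between the sets of clones, where it was that without the third *VEGFA-LNC* clone. Scaling by the median of ratios moved the share called as higher from 31.7% to 46.3% upon *VEGFC-LNC* deletion, from 23.0% to 39.3% between the control sets and from 78.3% to 57.4% between the sets of clones. Without 1 library *JAK1* upon *VEGFA-LNC* deletion was −0.62 to 0.20, positive without the first clone, and *JAK3* −0.079 to 0.62, negative without the second.

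The log2 difference of *IL7R* upon *VEGFA-LNC* deletion was −3.43 with a pseudocount of 1 and −3.75 against all 4 controls, and −5.30 to −4.84 without 1 library. Upon *VEGFC-LNC* deletion it turned to −0.83 against all 4 controls and was 0.11 to 0.84 without 1 library, never past the threshold. Against all 4 controls the sign also turned for *STAT5A* (−0.14 and 0.41 in the 2 deletions), *STAT5B* (−0.12 and 0.14), *SOCS3* (0.53 upon *VEGFA-LNC* deletion), *CSF2RB* (−0.51 upon *VEGFC-LNC* deletion) and *IL6ST* (−0.39 upon *VEGFC-LNC* deletion). The cause was not tested. Of 1158 values of single genes under an alternative, 1000 kept their direction and side of the threshold, 131 lost the threshold, 18 passed it and 9 changed sign. Genes not called in the main fit counted as kept while they stayed uncalled with the same sign. Only calls of the main fit could lose the threshold, so that 131 of 1158 is not the share of calls lost.

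With the replicate number as a block (replicate block) 151 genes were called upon *VEGFA-LNC* deletion, 20 upon *VEGFC-LNC* deletion and 86 for the difference between the effects. Same-numbered clones and controls did not deviate together (r = −0.04 to 0.05 within a set), so that clones and controls share only a number.

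Depth limits *IL7*, *TSLP*, *JAK3*, *IL2RG* and *CISH*, which had few reads.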

Other observations

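The first *VEGFA-LNC* deletion clone was the lowest of the 3 clones in all 4 tested partners and the highest in *IL7R*, which is given as a description. The share of all tested genes in which this clone was the lowest was not counted, so that this is no result about the partners. In log2 units relative to its controls, *JAK1* was at −1.39 in this clone and at 0.24 and 0.15 in the others, *JAK3* at −0.67 against 0.72 and 0.51, *STAT5A* at −0.19 against 0.76 and 0.50, and *STAT5B* at 0.06 against 0.43 and 0.33. *IL7R* was at −4.54 in it and at −5.13 and −5.46 in the others. This clone also differed the most from its fellows over all genes, with a median absolute log2 ratio of 0.44 and 0.378 against 0.203 between the other 2 clones.

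*IL3RA*, the alpha chain of the interleukin-3 receptor, was at 0.543 and 0.836 FPKM in the *VEGFA-LNC* controls and at 0.634, 8.38 and 3.32 FPKM in their clones, with 2 of 3 clones above every other library. *LIFR*, the receptor of leukemia inhibitory factor, was at 1.87 and 1.98 FPKM in the *VEGFA-LNC* controls, at 1.48, 3.96 and 4.52 in their clones, at 1.54 and 1.75 in the *VEGFC-LNC* controls and at 0.824, 0.639 and 0.633 in their clones, lowest in the *VEGFC-LNC* clones. Neither passed the test in its deletion comparison, but both did without the first *VEGFA-LNC* clone (*IL3RA* log2 FC 2.796, FDR 0.00588, and *LIFR* −1.13, FDR 0.0132). That fit called 1728 genes upon *VEGFA-LNC* deletion and 1157 upon *VEGFC-LNC* deletion, against 367 and 63 with all libraries. The *LIFR* comparison does not hold this clone, and its log2 FC was the same with all libraries.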
